A study of Mus musculus with 2 samples.

Results

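Low-hemoglobin erythroid barcodes of mouse bone marrow, put forward as early erythroid progenitors, are described here across genes in 1 wild-type and 1 double knockout library. A barcode stands for 1 droplet, and a unique molecular identifier (UMI) marks 1 captured transcript. Members were chosen by their own counts. Kept barcodes had 500 UMIs or more, of which no more than 20% came from mitochondrial genes. Members were the kept barcodes with a hemoglobin share (UMIs of Hbb-bt, Hbb-bs, Hba-a1 and Hba-a2 over all UMIs) below 15% that also held 4 or more UMIs of Car1, Klf1, Ermap, Rhag and Cldn13 together, from 2 or more of these genes, and fewer than 3 UMIs of Cd79a, Pf4 and Mcpt8 together. In all, 1104 of 33691 kept barcodes met this rule. They were 653 of 19764 barcodes in the WT library (3.30%, exact 95% interval 3.06% to 3.56%) and 451 of 13927 in the DKO library (3.24%, interval 2.95% to 3.55%). The intervals overlapped, and all intervals given here cover counting error only.

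Both libraries were made from total cells flushed from the femur of 2-month-old mice with the Chromium 3' v3 chemistry, which counts transcripts from their 3' end. The DKO mouse was labelled VavCre:Ddx41 fl/fl, cGAS-/-, so it lacked Ddx41, an RNA helicase of the DEAD-box family, in cells that had expressed the recombinase, and lacked the cytosolic DNA sensor cGAS in all cells. The WT mouse was, per the study's methods, a littermate with floxed Ddx41 alleles, no VavCre and wild-type cGas. Vav-Cre is active in blood-forming cells as a whole, so the erythroid lineage was not the only one deleted, and what the loss of each gene contributed cannot be told apart. With 1 library per genotype there was no replicate check and no test. "Higher" and "lower" below compare these 2 libraries, not the genotypes. The libraries held 135693452 UMIs (WT) and 117725934 UMIs (DKO). The authors deposited the WT library with all of its barcodes, of which 1194299 had a UMI, and the DKO library with called cells. The shares above, and the DKO over WT values of barcodes with few UMIs below, thus rest on different barcode calling.

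Red cells arise from progenitors that carry the receptor tyrosine kinase Kit and then switch on Gata1, Klf1 and the erythropoietin receptor. Early stages make many ribosomes and divide rapidly, and later stages fill with heme and hemoglobin while most other transcripts decline. Because these stages follow one another without a break, a limit on hemoglobin selects a range and not a separate cell type.

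The genes of the rule were present in most members, as the selection requires, and are given as a description. Car1, a carbonic anhydrase of early erythroid cells, stood at 1829 CPM (UMIs of the gene per 1000000 UMIs of the members) in the WT and 2069 in the DKO members. Klf1, the erythroid zinc finger activator, was at 248 and 260 CPM, and Ermap, an erythroid membrane protein, at 424 and 466. The ammonium transporter gene Rhag was at 346 and 421 CPM and Cldn13, a claudin, at 321 and 293. Epor, the erythropoietin receptor, was not part of the rule and had 80.9 CPM in the WT and 84.1 CPM in the DKO members. An Epor UMI was found in 43.3% of WT and 48.8% of DKO members (median 6045 and 5804 UMIs). In B lineage barcodes, which should lack it, the shares were 0.576% and 0.369% (median 2884 and 4023 UMIs). Epor was thus found in a far larger share of members than of B lineage barcodes.

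The thresholds passed through continuous ranges. Members with a hemoglobin share of 13% to 15% (44 WT and 36 DKO) had Epor at 84.6 and 92.6 CPM, and barcodes just outside, at 15% to 17% (41 and 27), had it at 105 and 99.97 CPM. At the lower limit of the marker sum, the 77 WT and 41 DKO members with exactly 4 UMIs had Epor at 37.8 and 33.6 CPM. The barcodes left outside with 3 UMIs (109 and 61) had 33.5 and 43.6 CPM. S100a8, a neutrophil calcium-binding protein, reached 24369 CPM in the 77 WT and 12186 CPM in the 41 DKO members with 4 marker UMIs, so the lowest marker counts included droplets with neutrophil RNA. It was not confined to them, being at 15007 and 6933 CPM in members of 13% to 15% hemoglobin, with median marker sums of 18 and 15.5 UMIs. Hemoglobin was 14.5% of the UMIs in WT barcodes of at most 100 UMIs, the measure of free RNA, and no such barcodes were held for the DKO library. No barcode was a member in both libraries, 2 members had the same barcode sequence as a kept barcode of the other library, and 80 kept barcodes were shared in all.

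No doublet caller was run, and transcripts of other lineages were measured instead. In the WT library 84 members (12.9%) and in the DKO library 30 members (6.65%) had 1% or more of their UMIs from a list of another lineage. Neutrophil markers accounted for 64 WT and 27 DKO members and monocyte or macrophage markers for 16 and 4. All 14 neutrophil markers had UMIs in both libraries, with a summed level of 19486 CPM in WT and 8088 CPM in DKO members, led by S100a9 (7515 and 2695 CPM). Without the members holding another lineage the sums were 927 and 415 CPM, and S100a9 was at 293 and 134 CPM. The WT set therefore held more neutrophil RNA than the DKO set, and ratios are given below with and without these members. All 12 monocyte and macrophage markers were found, with sums of 1355 and 551 CPM led by Lyz2 (808 and 281 CPM), and 514 and 276 CPM without the other-lineage members. The remaining lists summed to at most 151 CPM in either library. Of the 11 B lineage and 10 T and NK cell markers all were found, with sums of 148 and 34.3 CPM (Cd74 most abundant in WT, Ighm in DKO) and of 50.5 and 50.6 CPM (Nkg7 in both). The megakaryocyte list was at 71.2 and 49.7 CPM (Plek), with Gp1bb at 0 in the DKO members. The basophil and mast cell list was at 145 and 64.2 CPM (Ifitm1 in WT, Hdc in DKO), with Cd200r3 at 0 in the DKO members. The dendritic list was at 151 and 52.6 CPM (Bst2), with Siglech, Xcr1 and Cd209a at 0 in DKO. The stromal and endothelial list was at 151 and 12.7 CPM (Cxcl12 in WT, Pecam1 in DKO), with Kdr, Cdh5 and Emcn at 0 in DKO. None of the markers was at 0 in the WT members.

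The members fell into 2 ranges of depth in both libraries. Of the WT members 347 (53.1%) and of the DKO members 235 (52.1%) held 5000 UMIs or more, with medians of 16159 and 26517 UMIs. The other 306 WT and 216 DKO members had medians of 1804.5 and 1966.5 UMIs. Near the boundary, at 4000 to 6000 UMIs, lay 47 WT and 34 DKO members. The deeper range supplied 91.6% of the members' 7482203 UMIs in WT and 93.9% of 7964382 UMIs in DKO, so summed values describe mainly these barcodes. Deep members without other-lineage RNA (272 and 208) had a median of 3738 genes in WT and 4759 in DKO, and of 1929.5 and 1987.5 genes once each was thinned to 5000 UMIs. Their hemoglobin share was close to that of the shallow members without other-lineage RNA, with medians of 3.41% against 3.45% in WT and 3.76% against 4.29% in DKO.

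**Figure D1:**
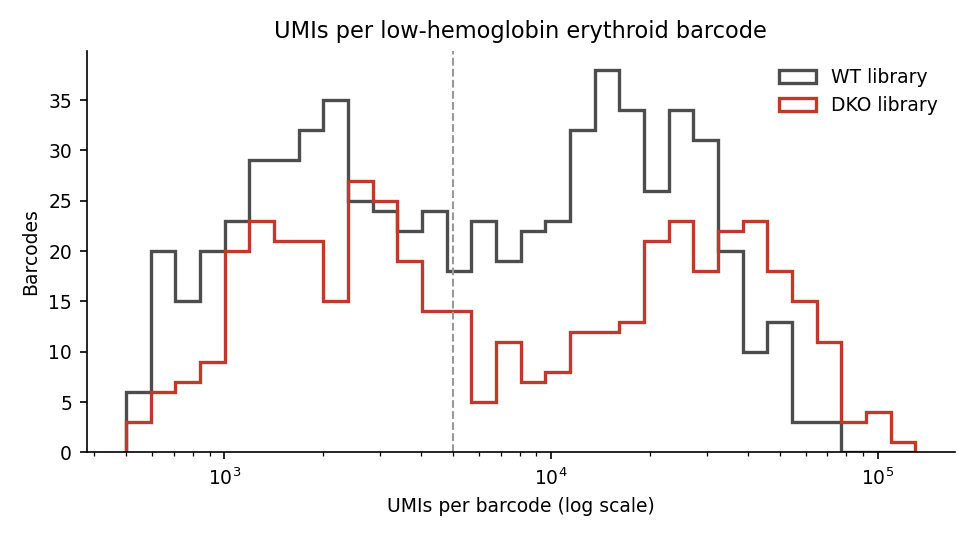
UMIs per low-hemoglobin erythroid barcode on a log axis, as a histogram for the WT library (653 barcodes, gray) and the DKO library (451 barcodes, red), with a dashed line at 5000 UMIs. Both libraries show a lower and a higher range, and the higher range of the DKO library lies at more UMIs (median 26517) than that of the WT library (median 16159).

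The 2 ranges differed in the transcripts counted in them, and the cause was not tested. With other-lineage members left out, 3091 genes had at least 50 CPM on the mean of both ranges in each library. Of these, 762 genes (24.7%) were at least 2-fold higher in the shallow range in both libraries and 379 (12.3%) at least 2-fold lower. The genes shown for this comparison were chosen after their values were seen. Xpo7, an exportin that is raised in maturing erythroblasts, was at 42.0 CPM in deep and 1854 CPM in shallow WT members, and at 31.0 and 1904 CPM in DKO. Tmcc2, a membrane protein gene of maturing erythroid cells, was at 39.0 and 1032 CPM in WT and at 40.4 and 901 CPM in DKO. Sox6, a transcription factor of definitive erythropoiesis, stood at 540 and 4954 CPM in WT and 628 and 5494 CPM in DKO. These picked genes were thus far higher in the shallow range, and no fixed list of late red cell genes was compared. Of the fixed lists, erythroid identity summed to 12526 CPM in deep and 21905 CPM in shallow WT members (12234 and 27097.5 in DKO). Heme synthesis was at 5779 and 6959 CPM in WT (5089.5 and 7346 in DKO). Iron handling was at 12071 and 9454 CPM in WT (10563 and 9712 in DKO). The red cell anion exchanger Slc4a1 was at 388 CPM in deep and 1765 CPM in shallow WT members (426 and 2525 in DKO). Alas2, which starts heme synthesis in erythroid cells, was at 153 and 678 CPM in WT and 146 and 792 CPM in DKO. Malat1, a long non-coding RNA that is kept in the nucleus, was at 1941 and 11216 CPM in WT and 1943 and 10691 CPM in DKO.

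Genes of early progenitors went the other way. Kit was at 42.0 CPM in deep and 8.39 CPM in shallow WT members, and at 44.1 and 8.52 CPM in DKO. Gata2, a factor of stem and progenitor cells, had 20.5 CPM in deep and no UMI in shallow WT members, against 21.9 and 2.13 CPM in DKO. Myc, a driver of growth and ribosome production, was at 78.6 and 18.5 CPM in WT and 88.5 and 17.03 CPM in DKO. Of 79 ribosomal protein genes, 64 were at least 2-fold lower in the shallow range, against 12.3% of all compared genes, and 0 were higher, against 24.7%. Together they held 26.2% of UMIs in deep and 12.1% in shallow WT members, and 24.7% and 8.98% in DKO. The genes higher in the shallow range spanned a median of 72689.5 bases of the genome, those lower in it 6295 bases, and all compared genes 29654 bases. Epor and Gata1 differed less between the ranges. Epor was at 84.8 and 121 CPM in WT and 86.7 and 102 CPM in DKO, and Gata1, the master regulator of the lineage, at 169 and 156 CPM in WT and 183 and 160 CPM in DKO. The 15 genes of the stem and early progenitor list summed to 411 CPM in deep and 99.0 CPM in shallow WT members, and to 331 and 68.1 CPM in DKO. The name of early progenitor therefore matched the deep members only in part and went against the shallow ones, where these genes were low. The late red cell genes named above were picked after their values were seen and do not describe such genes as a group. The set is called by its rule.

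Transcript levels of the deep members differed with their hemoglobin share. Those with a share under 1% (94 WT and 77 DKO members without other lineage) had Kit at 86.3 CPM in WT and 82.3 CPM in DKO, and in the ranges of 1% to 3%, 3% to 7% and 7% to 15% it stayed at or below 12.9 CPM in WT and 21.2 CPM in DKO. The range of 1% to 3% held 33 WT and 17 DKO members. The single genes of this comparison were chosen after their values were seen. Slc4a1 was at 21.8 and 11.1 CPM under 1%, and at 854 and 1122 CPM at 7% to 15%. Stem and early progenitor genes were thus highest in barcodes with almost no hemoglobin. Their 15 genes summed to 715 CPM in WT and 611 CPM in DKO under 1%, with no steady order beyond it. The sums were 167 and 75.9 CPM at 1% to 3%, 212 and 111 CPM at 3% to 7%, and 182 and 62.8 CPM at 7% to 15%. From the range under 1% to that of 7% to 15%, the 17 heme synthesis genes went from 3214 to 8469 CPM in WT and from 2973 to 7584 CPM in DKO. The 39 ribosome biogenesis genes went from 10388 to 2668 CPM in WT and from 12316 to 2577 CPM in DKO. G2 and mitosis genes (46) went from 7939 to 14324 CPM in WT and from 7845 to 15294 CPM in DKO. Hemoglobin was used by the rule, so genes that follow it are a description.

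**Figure D2:**
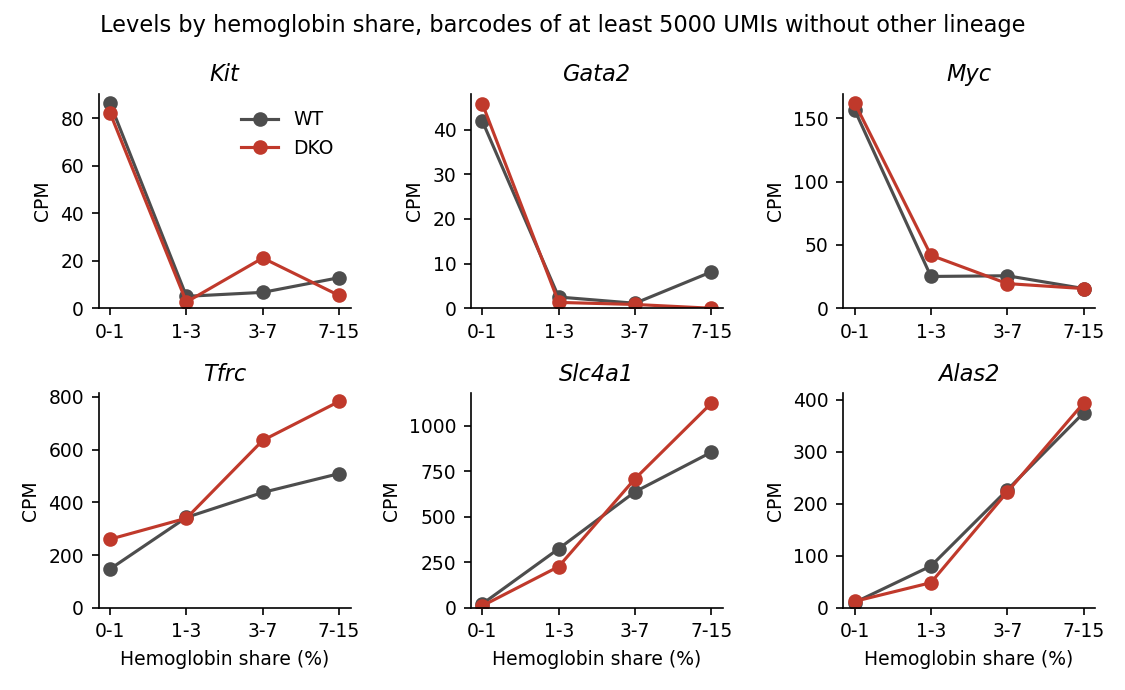
Level in CPM of 6 genes against the hemoglobin share of the barcodes (percent of UMIs, 4 ranges), in barcodes of 5000 UMIs or more without other-lineage members, for WT (gray) and DKO (red). Each point is 1 summed value per library, and Kit, Gata2 and Myc are highest below 1% while Tfrc, Slc4a1 and Alas2 are highest at 7% to 15%.

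The 15 genes that most exceeded their level in all other kept barcodes, outside the genes of the rule, were led by Mt2 and C1qtnf12. Mt2, a metal-binding metallothionein, was at 74.2 CPM in WT and 110 CPM in DKO members, against 2.50 and 2.05 CPM in the other barcodes. C1qtnf12, a secreted protein of the C1q family, was at 446 and 453 CPM against 21.8 and 16.4 CPM. Stard10, a lipid transfer protein, was at 281 and 273 CPM against 17.4 and 13.6 CPM. Sphk1, a sphingosine kinase, was at 69.4 and 80.9 CPM against 3.80 and 4.33 CPM. These genes declined with the next stage. In erythroid barcodes with 15% to 40% hemoglobin (581 WT and 443 DKO), Mt2 was at 3.52 CPM in WT and 2.37 CPM in DKO and C1qtnf12 at 74.9 and 57.3 CPM. At 40% to 75% hemoglobin (1091 and 1172 barcodes) C1qtnf12 was at 14.7 and 10.8 CPM. The others of the 15 were Gm15915, Sdsl, Sec14l2, Tmem56, Gstm5, Minpp1, Bex4, Col5a1, Smim1, Sept8 and Trim2, whose CPM was 8.63-fold to 18.7-fold that of the other barcodes in WT and 9.07-fold to 24.1-fold in DKO, with 1 CPM added to each. Since the same barcodes defined the set, this is a description and no test.

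Between the libraries, the deleted genes were lower in DKO but not absent. Ddx41 had 228 UMIs (30.5 CPM) in the WT and 148 UMIs (18.6 CPM) in the DKO members, a log2 ratio of -0.71 (interval -1.02 to -0.41). Cgas had 94 UMIs (12.6 CPM) and 63 UMIs (7.91 CPM), a ratio of -0.66 (interval -1.15 to -0.19). Without other-lineage members the ratios were -0.74 and -0.64. The 3' end counted here need not lie in the deleted part of either gene, so remaining UMIs do not measure intact transcript. In erythroid barcodes with 15% to 40% and 40% to 75% hemoglobin Ddx41 was at -0.79 and -0.94, and in B lineage barcodes at -0.96. The value at 40% to 75% rests on low levels, with Ddx41 and Cgas together at 2.81 CPM in WT and 1.86 CPM in DKO. Cgas was at -0.93 and 0.22 in these erythroid stages, the second from levels of 0.511 and 0.670 CPM, and at -1.23 in B lineage barcodes.

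Of 5991 genes with at least 20 CPM on the mean of both libraries, 180 (3%) were 1.5-fold or more higher in the DKO members and 287 (4.79%) lower. The median log2 ratio of all these genes was 0.09, and the median absolute ratio was 0.22. The intervals of all 180 and 287 genes lay off 0. Without other-lineage members, 145 of 5832 genes (2.49%) were higher and 148 (2.54%) lower, so the excess of lower genes was not seen once those members were left out. Setting the median ratio to 0 gave 77 higher and 363 lower genes in the whole set. In deep members without other lineage 219 of 5844 genes (3.75%) were higher and 144 (2.46%) lower. In shallow ones 511 of 5241 (9.75%) were higher and 894 (17.1%) lower, from far fewer UMIs. WT members had passed no cell calling, unlike DKO members, so the values of shallow members also rest on different barcode calling. Leaving out members above 3 times their library's median UMIs gave 866 higher and 568 lower genes, and a Ddx41 ratio of -0.35.

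The 10 lowest ratios among genes of at least 50 CPM included neutrophil and stromal genes. Cxcl12, a chemokine of stromal cells, was at 109 CPM in WT and 4.14 CPM in DKO members (-4.67), and at 6.39 and 2.19 CPM without other-lineage members. The neutrophil genes Lcn2, Retnlg and Chil3, with Hp and Ifitm6, had ratios of -2.03, -2.01, -2.33, -1.85 and -1.86, and of -1.41, -0.70, -2.94, -1.40 and -1.01 without those members. Neutrophil markers as a list were lower for 11 of the 13 tested genes (median -1.25), against 4.79% of all tested genes, and for 7 of 7 (median -1.07), against 2.54%, without other-lineage members. Some of these genes may have reached 20 CPM through WT alone, but the sums over all 14 markers given above were lower too. Neutrophil RNA was thus lower in the DKO members in both settings. In B lineage barcodes the list was also lower in DKO, at 19119 CPM in WT and 11330 CPM in DKO (14 tested genes, median -0.73). The difference was therefore not particular to the erythroid set. Plac8, a small protein of myeloid and progenitor cells, was at 486 and 149 CPM (-1.70, interval -1.80 to -1.61) and at -1.79 without those members. Hist1h2ap, a replication-dependent histone H2A gene, was at 1628 and 313 CPM (-2.38). Its ratio in B lineage barcodes was -2.27, so this difference was not particular to the erythroid set. It has near-identical copies between which the counting could divide reads, and its value is uncertain.

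Of the 10 highest ratios, Gm47283, a gene model on chromosome Y, stood out at 13.2 CPM in WT and 87.9 CPM in DKO members (2.72, interval 2.43 to 3.05), and it was at 2.46 in B lineage barcodes. Uty and Ddx3y, other genes of that chromosome that were named after their values were seen, were at 66.0 and 72.7 CPM and at 46.1 and 49.8 CPM. The value of Gm47283 is uncertain, since the annotation used for each library was not given beyond the build and the version of Cell Ranger. Hsph1, a chaperone of the HSP110 family, was at 33.01 and 90.4 CPM (1.45, interval 1.24 to 1.67), and at 14.2 and 40.2 CPM in B lineage barcodes. Both genes were higher in members and in B lineage barcodes, but Hsph1 was at 0.24 in shallow members without other lineage and at -0.32 (3.32 and 2.68 CPM) at 40% to 75% hemoglobin. Aim2, an inflammasome sensor of cytosolic DNA, was at 53.6 and 106 CPM (0.98, interval 0.81 to 1.16). Its ratio was 1.36 and 1.31 at 15% to 40% and 40% to 75% hemoglobin and -0.07 in B lineage barcodes, where its level was 80.7 and 77.1 CPM. Ccne2, the cyclin E2 that drives entry into S phase, was at 80.6 and 145 CPM (0.85), and Atf4, the transcription factor of the integrated stress response, at 85.1 and 147 CPM (0.79). The remaining ones were Mthfd1 of folate metabolism (0.86), the tRNA synthetase gene Iars (0.85), the superoxide dismutase gene Sod1 (0.82), the ribosome assembly factor Bms1 (0.81) and the RNA-binding protein gene Larp4 (0.81). All 10 also stood at 0.71 or more without other-lineage members. In shallow members without other lineage, Mthfd1 and Sod1 had the opposite sign (-0.66 and -0.24), and Larp4 was at -0.04 without members above 3 times the median UMIs.

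Interferon-stimulated genes were lower in the DKO members. Of 43 genes of this list 21 reached 20 CPM, of which 14 were 1.5-fold or more lower, against 4.79% of all tested genes, and 0 higher, with a median ratio of -0.70 against 0.09 for all genes. Isg15, a ubiquitin-like antiviral protein, was at 94.8 CPM in WT and 22.3 CPM in DKO (-2.08, interval -2.33 to -1.84). Ifi27 and Ifi27l2a, small interferon-induced membrane proteins, were at 125 and 44.1 CPM (interval of the ratio -1.69 to -1.33) and at 45.0 and 6.28 CPM (-2.82). In all members under 5000 UMIs Ifi27l2a was at 0.08. B2m and H2-D1, which form class I antigen-presenting molecules, were at 576 and 422 CPM (-0.45) and at 333 and 201 CPM (-0.73). Bst2, the virus-tethering factor tetherin, was at 72.4 and 32.6 CPM (-1.15). Lower levels were thus found in abundant genes of the list such as B2m and H2-D1. A gene below 20 CPM in DKO, such as Ifi27l2a, was tested only because of its WT level, so scarce genes show nothing further here. Irf8, an interferon regulatory factor of myeloid cells that is also in the dendritic list, as is Bst2, was at 59.9 and 17.1 CPM (-1.80). The single gene above 0 was Cmpk2, a mitochondrial nucleotide kinase named after its value was seen, at 36.0 and 42.3 CPM (0.23).

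Several of these genes are also made by myeloid cells, and the list was measured again without other-lineage members. There 10 of 19 genes were lower, against 2.54% of all tested genes, and 0 higher (median -0.59), with Isg15 at 75.1 and 15.2 CPM (-2.30) and Ifi27 at 128 and 44.4 CPM (-1.53). Myeloid lists were still lower there, with medians of -1.07 for neutrophil markers (7 of 7 tested genes lower past 1.5-fold) and -0.84 for monocyte and macrophage markers (2 of 4), and their part in the interferon-stimulated list was not tested. Without other-lineage members the summed level of the interferon-stimulated list was 2551 CPM in WT and 1570 CPM in DKO, and in the whole set 2820 and 1647 CPM. Within deep members without other lineage it was 2980 and 1980 CPM below 1% hemoglobin, 2258 and 1435 CPM at 1% to 3%, 2163 and 1061 CPM at 3% to 7% and 2378 and 1334 CPM at 7% to 15%. The DKO level was the lower one in each of the 4 ranges. The list median was -0.58 in deep and -1.23 in shallow members without other lineage, -1.12 and -1.07 in the next erythroid stages and -0.36 in B lineage barcodes. It stayed below 0 under each scaling tried.

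**Figure D3:**
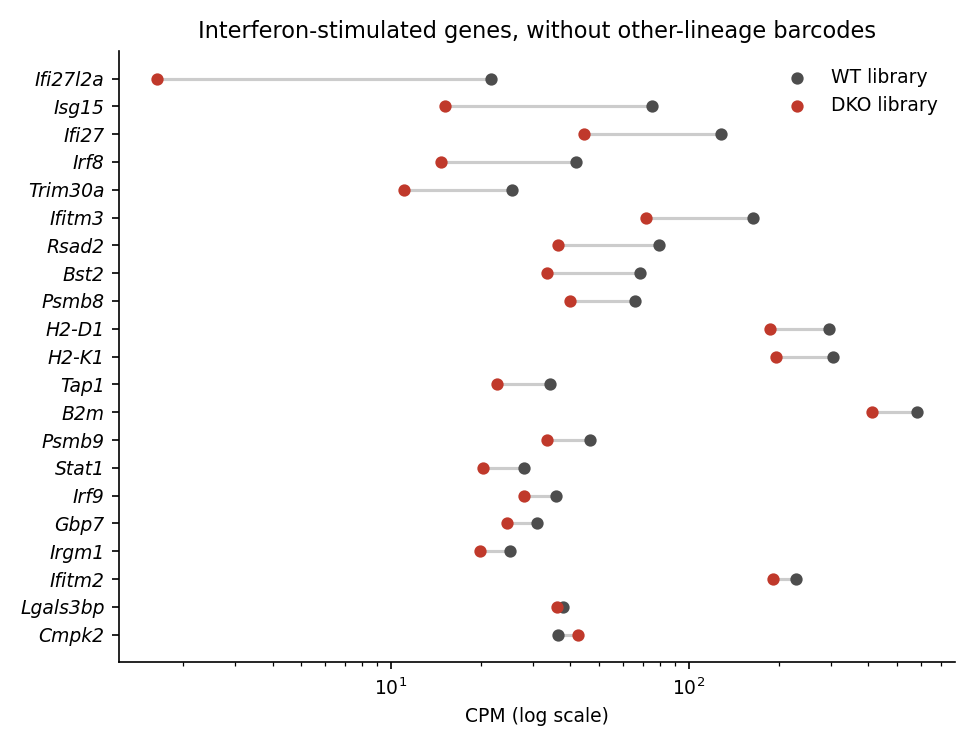
Level in CPM (log axis) of the 21 interferon-stimulated genes tested in the whole set, drawn without other-lineage barcodes, where 19 reach a mean of 20 CPM, in the WT library (gray) and the DKO library (red). Each point is 1 summed value per library, and the DKO level is below the WT level for all genes but Cmpk2.

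The promoters of these genes were searched for the letters GAAANNGAAA on either strand, where N is any base, a pattern that interferon-activated factors bind. It was found in the 250 bases before the start in 17 of 35 listed genes with a promoter in the RefSeq table (48.6%), against 2.98% of all 32851 promoters. Listed genes were counted once if any of their promoters matched, and the background by promoter (27025 genes), so the units of the 2 shares differ. Among the tested genes the pattern was found in 4 of 11 that were lower past 1.5-fold and in 4 of 7 that were not, so it did not separate these groups. A match describes letters and no binding. The promoters of Isg15 (chr4:156200819-156201068, minus strand), Bst2 (chr8:71537473-71537722, minus strand) and B2m (chr2:122147437-122147686, plus strand) are shown from RefSeq on GRCm38.p6, because they carried the pattern and span large and small ratios, with matches in capitals.
Isg15: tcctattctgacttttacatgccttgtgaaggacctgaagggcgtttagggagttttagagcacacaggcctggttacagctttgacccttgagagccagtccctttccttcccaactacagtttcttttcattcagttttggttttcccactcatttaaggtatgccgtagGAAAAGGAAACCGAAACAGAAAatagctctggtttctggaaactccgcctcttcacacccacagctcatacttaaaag
Bst2: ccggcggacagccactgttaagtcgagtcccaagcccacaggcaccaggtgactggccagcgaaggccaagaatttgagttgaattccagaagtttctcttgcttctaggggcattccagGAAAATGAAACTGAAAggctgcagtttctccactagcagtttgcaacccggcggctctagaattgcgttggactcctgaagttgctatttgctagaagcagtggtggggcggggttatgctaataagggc
B2m: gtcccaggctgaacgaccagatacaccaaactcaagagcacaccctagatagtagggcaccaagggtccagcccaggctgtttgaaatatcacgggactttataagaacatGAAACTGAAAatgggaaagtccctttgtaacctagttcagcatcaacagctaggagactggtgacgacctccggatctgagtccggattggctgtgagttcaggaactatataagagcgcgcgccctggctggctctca

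Ribosome biogenesis genes leaned the other way. All 39 genes present were tested, of which 8 were 1.5-fold or more higher in DKO, against 3% of all tested genes, and 0 lower, with a median ratio of 0.37. Nucleolin (Ncl) was at 880 and 1350 CPM (0.62, interval 0.57 to 0.66) and Npm1, the other abundant nucleolar protein, at 1531 and 2061 CPM (0.43). Ddx21, a nucleolar helicase, was at 109 and 179 CPM (0.72), and Mybbp1a, a nucleolar regulator of ribosomal RNA synthesis, at 75.4 and 123 CPM (0.71). Tcof1, which supports ribosomal RNA transcription, was at 38.6 and 60.9 CPM (0.65), and Ddx10, another helicase, at 36.1 and 57.0 CPM (0.66). Without other-lineage members 3 of 39 were higher, against 2.49% of all tested genes, and 0 lower (median 0.29), a smaller difference. The median stayed above 0 under each scaling tried, at 0.28 with the median ratio set to 0 and at 0.15 with members weighted alike. It depended on the barcodes, being 0.29 in deep but -0.39 in shallow members without other lineage, where Ncl was at -0.32, Ddx21 at -0.15 and Ddx10 at -0.17. In later erythroid barcodes it was -0.12 at 15% to 40% hemoglobin (11 tested genes) and 0.29 at 40% to 75% (4 tested), and in the B lineage -0.06 (33 tested). In deep members without other lineage the summed level was 10388 CPM in WT and 12316 CPM in DKO below 1% hemoglobin, 4983 and 6424 CPM at 1% to 3%, 3834 and 4411 CPM at 3% to 7% and 2668 and 2577 CPM at 7% to 15%. The DKO level was thus the higher one in all ranges but that of 7% to 15%.

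Ribosomal proteins themselves differed little in sum, at 22.8% of UMIs in WT and 22.9% in DKO members. Of 79 genes, 0 were higher past 1.5-fold, against 3% of all tested genes, and the median was -0.01, or -0.10 both with the median ratio set to 0 and without other-lineage members. In shallow members without other lineage it was -0.46, where the summed level was 121220 and 89812 CPM. In deep members it was 299653 and 270509 CPM below 1% hemoglobin, 267850 and 280753 CPM at 1% to 3%, 234736 and 229107 CPM at 3% to 7% and 216348 and 197681 CPM at 7% to 15%, lower in DKO in all ranges but that of 1% to 3%. Rplp1, of the ribosomal stalk, was at 6054 and 7184 CPM (0.25), and Rps2 of the small subunit at 5713 and 6448 CPM (0.17). Of 40 translation factors 1 was higher, near the 3% of all tested genes, the scaffold Eif4g1 at 165 and 263 CPM (0.67; -0.39 in shallow members without other lineage), with a list median of 0.12 that was 0.03 with the median ratio set to 0 and -0.03 with members weighted alike. The elongation factor Eef1a1 was at 4920 and 4509 CPM (-0.13). Of 44 spliceosome genes 1 was higher, again near 3%, the helicase Dhx15 at 107 and 163 CPM (0.61), with a median of 0.21.

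**Figure D4:**
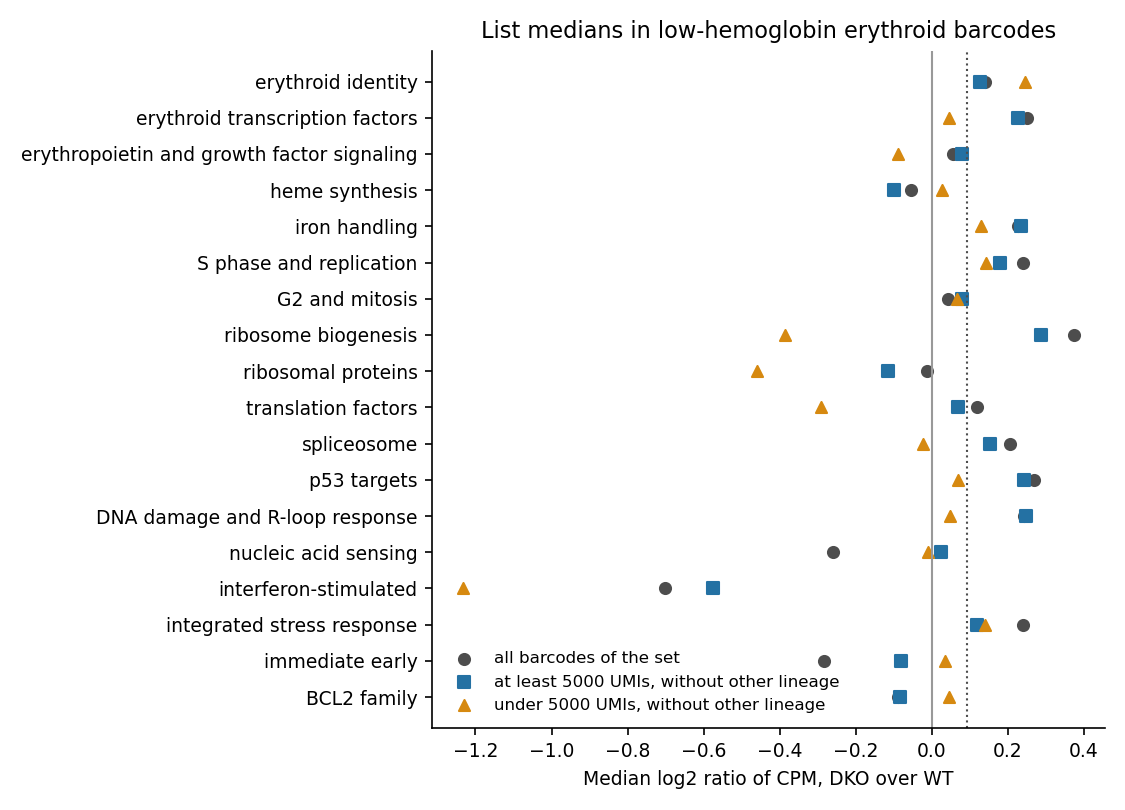
Median log2 ratio of CPM, DKO over WT, for 18 gene lists in all low-hemoglobin erythroid barcodes (circles) and, without other-lineage members, in those of at least 5000 UMIs (squares) and below 5000 UMIs (triangles), with a solid line at 0 and a dotted line at the all-gene median of 0.09. Interferon-stimulated genes lie lowest in all 3 sets, at -0.70, -0.58 and -1.23, while ribosome biogenesis genes lie above 0 in the first 2 and at -0.39 in the last.

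Erythroid identity genes were at like levels in both libraries. Of 25 identity genes 1 was higher, against 3% of all tested genes, the membrane skeleton adducin Add2 at 94.2 and 150 CPM (0.67), and 0 were lower, against 4.79%. The list median was 0.14, or 0.05 with the median ratio set to 0 and 0.24 with members weighted alike. Car2, a carbonic anhydrase, was at 2750 and 3028 CPM (0.14), Prdx2, a peroxide-removing enzyme, at 1998 and 1758 CPM (-0.19) and Gata1 at 150 and 173 CPM (0.21). Of 24 tested transcription factors of the lineage 1 was higher, Nfia at 289 and 434 CPM (0.59), which was at 0.55 without other-lineage members, had the opposite sign (-0.58) in shallow members without other lineage and was at -0.06 without members above 3 times the median UMIs, and the median was 0.25, or 0.11 with members weighted alike. Lmo2, a bridging protein of the Gata1 complex, was at 464 and 439 CPM (-0.08). Erythropoietin and growth factor signaling had 17 tested genes with 0 higher and 1 lower (median 0.06, or -0.03 with the median ratio set to 0), the kinase Lyn at 80.1 and 48.0 CPM (-0.74), which was at -0.37 without other-lineage members. Igf1r, a growth factor receptor, was level at 167 and 167 CPM (0.01). Of the 5 tested stem and early progenitor genes, Ifitm1, an interferon-inducible membrane protein, was lower at 75.4 and 19.1 CPM (-1.97), and Kit was at 37.0 and 39.6 CPM (0.09). Their median of 0.08 was -0.01 with the median ratio set to 0 and -0.17 with members weighted alike. Each of these 4 lists had 1 gene past 1.5-fold, against 3% of all tested genes higher and 4.79% lower, which says little about lists of this size. Of the 24 transcription factors 22 lay above 0, against 3726 of all 5991 tested genes.

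Heme synthesis had 16 tested genes with 0 past 1.5-fold in either direction, against 3% of all tested genes higher and 4.79% lower, and a median of -0.06. Tmem14c, a mitochondrial porphyrin transporter, was at 1299 and 1033 CPM (-0.33), and Glrx5, of iron-sulfur cluster assembly, at 873 and 831 CPM (-0.07). Iron handling had 18 tested genes with 1 higher, the ferrireductase Steap3 at 65.9 and 99.2 CPM (0.59), which was at 0.49 without other-lineage members, and a median of 0.23. In lists of this size those counts do not differ from the shares of all genes in a way that can be read. Tfrc, the transferrin receptor through which erythroblasts take up iron, was at 377 and 555 CPM (0.56, interval 0.49 to 0.63), just below 1.5-fold. Fth1, the ferritin heavy chain that stores iron, was at 6688 and 5479 CPM (-0.29). Tfrc and Fth1 thus differed in opposite directions, each by less than 1.5-fold.

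All 50 S phase and replication genes were tested, and 1, Ccne2, was higher, against 3% of all tested genes, and 0 lower, against 4.79% (median 0.24). Pcna, the sliding clamp, was at 564 and 690 CPM (0.29), and Dut, a nucleotide-cleansing enzyme, at 833 and 839 CPM (0.01). Of 46 G2 and mitosis genes 1 was lower, the ubiquitin-conjugating enzyme Ube2c at 656 and 432 CPM (-0.60), with a median of 0.04 that was -0.05 with the median ratio set to 0. Of 33 tested DNA damage and R-loop genes 1 was lower, against 4.79% of all tested genes, the histone H2afx at 276 and 163 CPM (-0.76), and the median was 0.24. The 9 tested p53 target genes had 0 past 1.5-fold, with a median of 0.27 that was -0.16 with a gene minimum of 50 CPM and 0.02 with members weighted alike, and Bax, a pro-apoptotic pore protein, was at 152 and 115 CPM (-0.40). Of 8 tested BCL2 family genes 0 passed (median -0.09, or 0.03 with members weighted alike), with the mitophagy receptor Bnip3l at 207 and 194 CPM (-0.09). In the whole set, these lists held no gene past 1.5-fold other than Ccne2, Ube2c and H2afx, and counts this small are near the shares of all genes and no result about the lists. Without other-lineage members Ube2c was at -0.51, short of 1.5-fold, and 1 of 9 p53 target genes was higher, against 2.49% of all tested genes.

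Nucleic acid sensing had 10 tested genes, with Aim2 higher and Nfkbia, the inhibitor of NF-kB, lower at 35.2 and 20.1 CPM (-0.80), or -0.51 without other-lineage members and 0.02 in the shallow ones of these. Samhd1, a nucleotide hydrolase, was at 70.7 and 54.6 CPM (-0.37), and the list median was -0.26, or -0.02 without those members and 0.30 with a gene minimum of 50 CPM. Each direction thus had 1 of 10 genes, against 3% of all tested genes higher and 4.79% lower, and the median had no stable sign. The integrated stress response had 13 tested genes, of which 1, Atf4, was higher and 1, Cebpb, lower at 80.1 and 46.6 CPM (-0.78), which was -0.26 without other-lineage members. Against 3% of all tested genes higher and 4.79% lower, these counts are no result about the list. Asns, the asparagine synthetase driven by Atf4, was at 110 and 130 CPM (0.24), and the list median was 0.24. Of 13 tested immediate early and heat shock genes 2 were higher and 2 lower, against 3% of all tested genes higher and 4.79% lower. Without other-lineage members 1 of 12 was higher, against 2.49%, and 0 lower, against 2.54%. Counts this small say little about the list. The chaperones Hsp90aa1 (950 and 1541 CPM, 0.70) and Hspa8 (829 and 1307 CPM, 0.66) were the higher ones. Ier2 (38.0 and 24.7 CPM, -0.62) and Klf6 (24.5 and 16.2 CPM, -0.59) were the lower ones. The list median was -0.28, or -0.07 without other-lineage members, 0.18 with a gene minimum of 50 CPM and -0.50 with one of 5 CPM. Without other-lineage members Ier2 and Klf6 were at -0.43 and -0.36, and Hsp90aa1 and Hspa8 at 0.61 and 0.58, with Hspa8 short of 1.5-fold. In the shallow ones of these members Ier2 and Klf6 were at 0.34 and 0.12, and Hsp90aa1 and Hspa8 at 0.05 and 0.02.

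The promoters of the marker genes were searched for AGATAA or TGATAA on either strand, letters that Gata1 recognizes. Of the 6 genes Car1, Klf1, Ermap, Rhag, Cldn13 and Epor, 4 had a promoter in the RefSeq table, and all 4 held a match in the 250 bases before the start, against 16.6% of all promoters. Among the erythroid identity genes 7 of 18 held a match (38.9%), and among the ribosome biogenesis genes 1 of 34 (2.94%). Here too the lists were counted by gene and the background by promoter. The promoters of Klf1 (chr8:84901732-84901981, plus strand), Ermap (chr4:119189996-119190245, minus strand), Rhag (chr17:40810899-40811148, plus strand) and Epor (chr9:21963577-21963826, minus strand) on GRCm38.p6 are shown because these genes marked the set, with matches in capitals. A match is a description of the letters and no evidence of binding.
Klf1: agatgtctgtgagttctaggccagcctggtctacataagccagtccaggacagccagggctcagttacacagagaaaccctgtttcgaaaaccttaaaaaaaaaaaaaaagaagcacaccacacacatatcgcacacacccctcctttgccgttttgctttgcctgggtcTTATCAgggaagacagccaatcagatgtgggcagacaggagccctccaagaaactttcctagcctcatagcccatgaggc
Ermap: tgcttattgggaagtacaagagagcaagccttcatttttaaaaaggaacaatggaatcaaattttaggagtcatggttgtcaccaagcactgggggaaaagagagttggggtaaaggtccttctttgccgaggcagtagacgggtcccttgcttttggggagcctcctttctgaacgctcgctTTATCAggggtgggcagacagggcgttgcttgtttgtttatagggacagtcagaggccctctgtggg
Rhag: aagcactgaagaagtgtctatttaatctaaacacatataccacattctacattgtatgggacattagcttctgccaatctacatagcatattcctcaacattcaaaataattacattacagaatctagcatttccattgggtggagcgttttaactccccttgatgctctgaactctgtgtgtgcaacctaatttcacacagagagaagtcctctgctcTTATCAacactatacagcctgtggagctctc
Epor: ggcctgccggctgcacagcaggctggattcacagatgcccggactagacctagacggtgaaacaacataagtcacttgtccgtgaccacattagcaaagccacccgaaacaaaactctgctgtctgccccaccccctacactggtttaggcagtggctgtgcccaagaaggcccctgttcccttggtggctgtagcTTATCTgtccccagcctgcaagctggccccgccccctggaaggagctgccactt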

How the data were processed

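UMI counts per gene and barcode were deposited by the authors, made with Cell Ranger 7.1.0 per the file headers and the mm10 build per the submitters' processing notes, for 1 WT and 1 DKO library. No normalization had been applied to these counts. Barcodes were filtered and members chosen as stated above, and UMIs were summed over members of each library and scaled to CPM. Log2 ratios had 1 count added and exact conditional binomial 95% intervals, and genes needed 20 CPM on the mean of both libraries. Genes used by the rule were left out of the counts of higher and lower genes. The members and gene lists were chosen with earlier results of these data known. Named genes were the rule genes and given markers, Ddx41 and Cgas, from each list the 2 most abundant members and up to 4 past 1.5-fold, the 10 highest and 10 lowest ratios at 50 CPM or more, and the 15 genes most above the other barcodes. Not every gene this picks is reported here. Xpo7, Tmcc2, Sox6, Slc4a1, Alas2, Malat1, Kit, Gata2, Myc, Gata1, Tfrc in the plot by hemoglobin share, and the other-lineage markers at 0 were chosen after their values were seen, as was the split at 5000 UMIs into both ranges. B lineage barcodes had 4 or more UMIs of Cd79a and Cd79b and fewer than 4 of the rule genes. The 15 alternatives fixed at the start and 3 added after seeing the data varied the filters, scaling, weights and members. Promoters were the RefSeq table for GRCm38.p6. Scripts ran in Python 3.11.15 with numpy 2.4.6, scipy 1.17.1, pandas 2.3.3 and matplotlib 3.10.9, and were tested on simulated data.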

Additional observations from a re-analysis of the deposited data

How the results depend on the processing

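No paired analysis was possible because each genotype had 1 library, and for the same reason no library could be left out. The number of higher genes was 180 and of lower genes 287, and both stayed within 1.5 times under most alternatives (142 to 250 and 244 to 382), as the Ddx41 ratio stayed between -0.83 and -0.48. The gene minimum sets how many genes are counted: 50 CPM gave 70 higher and 107 lower, and 5 CPM gave 389 and 846. Setting the median ratio to 0 gave 77 higher genes and weighting members alike gave 282. Without other-lineage members 148 genes were lower, and 144 in those of at least 5000 UMIs. The ribosomal protein median (-0.01) was -0.050 with hemoglobin under 5%, -0.10 both with the median ratio set to 0 and without other-lineage members, and -0.12 both with members weighted alike and in members of at least 5000 UMIs without other lineage. Leaving out members over 3 times the median UMIs removed most deep DKO members by construction, since their median of 26517 UMIs exceeds 3 times 5804. It gave a log2 ratio of the member shares of -0.31 (-0.029 in the main setting and from -0.057 to 0.12 under the other alternatives), 866 higher and 568 lower genes, a ribosomal protein median of -0.45, a Ddx41 ratio of -0.35, and opposite signs for Nfia (-0.059), Hdc (0.51) and Larp4 (-0.039). Members under 5000 UMIs, an alternative added after seeing the data, gave 533 higher and 878 lower genes, a ribosomal protein median of -0.44 and a Ddx41 ratio of -1.04. Opposite signs there were Nfia -0.52, Ncl -0.27, Ddx21 -0.10, Ddx10 -0.14, Ifi27l2a 0.084, Eif4g1 -0.35, Klf6 0.54, Mthfd1 -0.54 and Sod1 -0.24. Without other lineage these shallow members gave 511 and 894 genes, a ribosomal protein median of -0.46 and a Ddx41 ratio of -1.07, with Nfia at -0.58, Ncl -0.32, Ddx21 -0.15, Ddx10 -0.17, Nfkbia 0.022, Eif4g1 -0.39, Ier2 0.34, Klf6 0.12, Mthfd1 -0.66 and Sod1 -0.24. Ddx41 and Cgas together were at 18.5 CPM of 595934 UMIs in WT and 6.39 CPM of 469638 UMIs in DKO there. The Ddx41 ratios of shallow members thus rest on few UMIs. Apart from these constructions, the cause was not tested. Of 56 named genes past 1.5-fold, 43 kept their direction under every alternative run. The gene minima gave no values for single genes, and scaling, gene minimum and added counts no member shares. Depth limits the shallow members most, with 6.07% of the UMIs of the DKO members and 8.37% in WT. Their DKO over WT values also rest on different barcode calling.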
